A study of Mus musculus with 4 samples.

Results

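The CC chemokine ligand genes Ccl1, Ccl2, Ccl3, Ccl4, Ccl5, Ccl6, Ccl7, Ccl8, Ccl12 and Ccl22 were followed through single cells sorted from mouse tumours. They were chosen by name, as 10 of the 32285 genes of the expression matrices, and each was traced to the cells that held its transcripts. The cells came from C57BL/6 females aged 12 to 16 weeks that carried subcutaneous tumours of MC38, a colon carcinoma line of the same species. The knockout group (KO) was Prdm1 f/f CD19cre, in which floxed Prdm1 alleles are combined with a cre recombinase that acts in the B lineage. The control group was Prdm1 f/f, so both groups carried the floxed alleles and differed by the cre. Tumours were taken on day 18 from 11 recipients of each genotype, and living CD138+ and B220+ cells were sorted from them and mixed in proportions not given in the sources used here. Each genotype had 1 expression library of pooled animals, so no difference below has a replicate check, no p-value is given, and every interval is a 95% interval that covers counting error only.

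CC chemokines are small secreted proteins that guide leukocytes by binding G protein-coupled receptors on the target cell. Ccl3 and Ccl5 act through Ccr1 among other receptors, and Ccl2, Ccl7 and Ccl12 draw monocytes through Ccr2. Ccl1 is a ligand of Ccr8, and Ccl22 is a ligand of Ccr4. Ccl6 is a rodent ligand of Ccr1. In tumours, such ligands are known from macrophages, lymphocytes and dendritic cells, and which cell type makes each of them differs between tissues.

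By RefSeq positions (assembly GRCm38.p6), 9 of the 10 genes lay on chromosome 11 in 2 blocks. Ccl2, Ccl7, Ccl12, Ccl8 and Ccl1 spanned 144.2 kb from 82035577 to 82179812. Ccl5, Ccl6, Ccl3 and Ccl4 spanned 138.9 kb from 83525778 to 83664683, with a gap of 1346 kb between the blocks. Ccl22 lay on chromosome 8. The annotated spans of Ccl3 and Ccl4 overlapped by 755 bases. Strand-aware counting is not stated in the sources used here, so reads from the overlap are uncertain between these genes. The order on the chromosome followed the producing cells in part: the macrophage-produced ligands below all lay in the first block and the basophil-produced ones all in the second, with Ccl1 beside the macrophage ligands and Ccl5 beside the basophil ones.

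RefSeq upstream sequence was given for 6 of the 10 genes (Ccl1, Ccl3, Ccl6, Ccl8, Ccl12 and Ccl22), while those of Ccl2, Ccl4, Ccl5 and Ccl7 were not analysed here. The 4 windows printed here are those of a macrophage pair and a basophil pair of ligands, each the 200 bases before the annotated start, written 5′ to 3′ on the gene's own strand. Capitals mark the letters TATAAA.
Ccl12, plus strand, chr11:82101645-82101844: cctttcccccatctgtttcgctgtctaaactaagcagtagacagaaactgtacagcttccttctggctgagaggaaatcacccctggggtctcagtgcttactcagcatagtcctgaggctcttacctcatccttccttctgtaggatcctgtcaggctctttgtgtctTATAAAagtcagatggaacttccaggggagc
Ccl8, plus strand, chr11:82114985-82115184: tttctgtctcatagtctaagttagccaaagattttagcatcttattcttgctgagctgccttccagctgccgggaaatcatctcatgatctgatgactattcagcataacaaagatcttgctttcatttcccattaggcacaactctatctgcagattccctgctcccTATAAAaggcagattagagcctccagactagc
Ccl3, minus strand, chr11:83649379-83649578: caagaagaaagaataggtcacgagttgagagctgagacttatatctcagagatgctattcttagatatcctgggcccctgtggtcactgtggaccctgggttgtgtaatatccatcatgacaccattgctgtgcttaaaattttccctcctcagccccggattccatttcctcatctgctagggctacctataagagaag
Ccl6, minus strand, chr11:83593088-83593287: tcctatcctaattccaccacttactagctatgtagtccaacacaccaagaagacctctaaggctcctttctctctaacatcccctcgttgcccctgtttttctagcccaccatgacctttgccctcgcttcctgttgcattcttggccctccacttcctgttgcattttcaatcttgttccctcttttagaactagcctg
TATAAA, searched on both strands, began 31 bases before the start of Ccl12 and 32 bases before that of Ccl8. The other 4 windows held no TATAAA, and 9.96% of the 32851 upstream windows of the same length held one. The letters GGGNNTTNC, TGANTCA and AGATAA, read on both strands, were in none of the 6 windows, against 10.8%, 5.48% and 7.80% of all windows. A match or its absence describes these letters only.

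The KO library held 897 barcodes with a median of 3966 UMIs (unique molecular identifiers, counts of single RNA molecules), and the control library 816 barcodes with a median of 5851. Filtering kept 863 KO and 804 control cells, in 17 clusters, 15 of which could be named from marker genes. All chemokine genes were kept out of the clustering, so the cell classes do not rest on the 10 ligands. In the KO and control libraries there were 287 and 239 B-like cells, 248 and 154 NK-like, 46 and 98 macrophage- or monocyte-like, 45 and 34 mast cell- or basophil-like and 38 and 35 T-like. Sort, mixing and library batch can set these sizes. Date stamps in the files differ by genotype, so a batch cannot be told apart from the cre. The libraries shared 3 barcodes. Prdm1, the targeted gene, had 16 UMIs in KO and 1 UMI in control B-like cells, and 43 UMIs in the plasma-like cells, which numbered 0 in the KO and 47 in the control library. Which exons were deleted is not given in the sources used here, and counts taken at the transcript start may lie outside them, so they do not check the deletion.

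**Figure D1:**
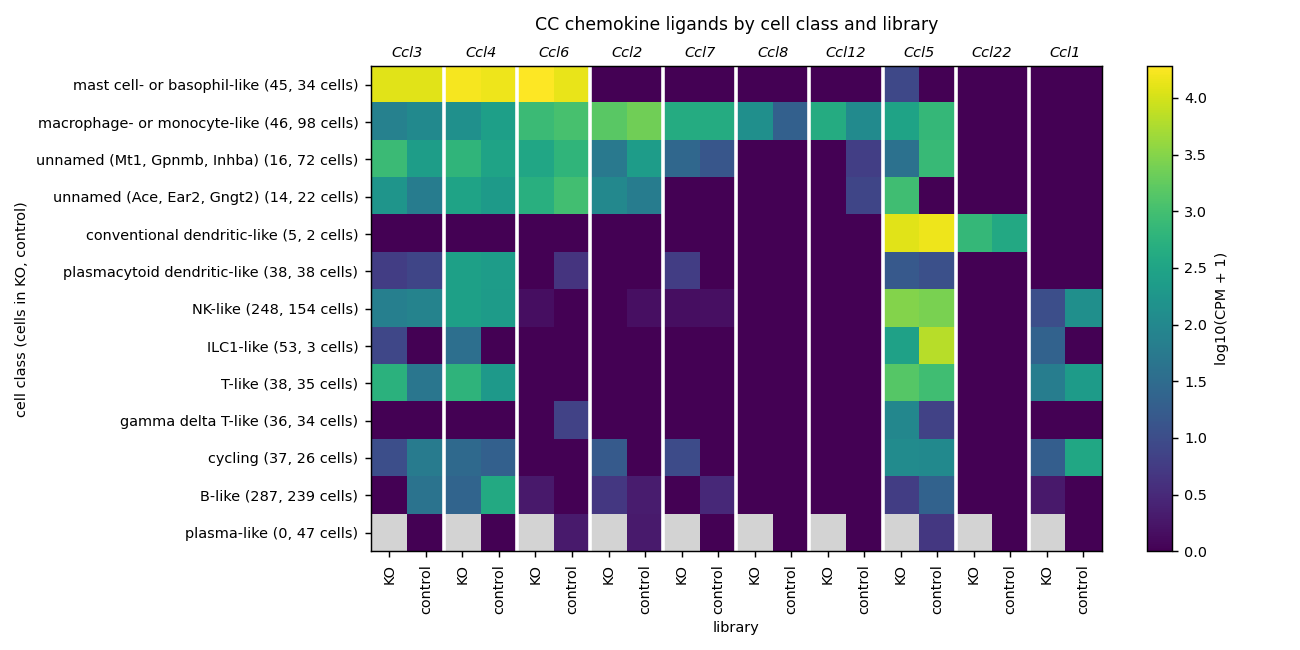
Level of each ligand in each cell class, KO left of control, as log10 of UMIs per 1000000 class UMIs (CPM) plus 1 (colour), with cell numbers beside each class and grey where a library had no cells. Ccl3, Ccl4 and Ccl6 peak in the mast cell- or basophil-like class, Ccl2, Ccl7, Ccl8 and Ccl12 in the macrophage- or monocyte-like class, and Ccl22 has UMIs in the conventional dendritic-like class alone.

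The 10 ligands together gave 34590 UMIs, and 718 of the 1667 kept cells held at least 1. Classes with at least 20 cells in each library or 50 in all were compared. The producing class of a ligand was the one of these with the highest CPM over both libraries. It was the mast cell- or basophil-like class for 3 ligands, the macrophage- or monocyte-like class for 4, the NK-like class for Ccl5 and the cycling class for Ccl1, while no class of sufficient size held Ccl22. B-like cells, the intended cells of the sort, were nearly free of all 10. From 0 to 5 of 287 KO and from 0 to 3 of 239 control B-like cells held a UMI of any given ligand, at median depths of 2713 and 3055 UMIs, and this share serves as the background for those below. Where a B-like share was 0, up to 1.28% of KO and 1.53% of control B-like cells remained possible by the exact interval.

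Ccl3, Ccl4 and Ccl6 were concentrated in a small class led by Cyp11a1, Hdc and Fcer1a, genes of the basophil and mast cell programme. All 8 of its defining markers, among them the basophil protease Mcpt8, had UMIs in both libraries, with a summed level of 7081 CPM in KO and 6575 CPM in control cells. Neither CD138 nor B220 defines basophils or mast cells, and how they passed the sort was not tested. The 3 ligands together made up 4.82% of all UMIs of this class in the KO library and 4.04% in the control library. The pooled level was 36.6-fold that of the next class for Ccl3, 42.7-fold for Ccl4 and 16.5-fold for Ccl6.

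Ccl3 (MIP-1 alpha, a ligand of Ccr1) had 1630 UMIs and 12450.5 CPM in KO cells, against 1362 UMIs and 12167 CPM in control cells. Every one of the 45 KO cells and 33 of the 34 control cells held it, with medians of 34 and 43.5 UMIs per cell. The genotypes overlapped throughout, and the ratio of KO over control was 1.02 (interval 0.952 to 1.10). Ccl4 (MIP-1 beta, an attractant of T cells and monocytes) had 2176 UMIs and 16621 CPM in KO cells, against 1650 UMIs and 14739.5 CPM in control cells. It was held by 41 of 45 KO and 33 of 34 control cells, with medians of 40 and 40.5 UMIs, and its ratio was 1.13 (1.06 to 1.20). Ccl3 and Ccl4 therefore stood near the same level in both genotypes in the same cells.

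Ccl6, the rodent Ccr1 ligand, was the ligand of this class with a larger gap between genotypes. It had 2501 UMIs and 19104 CPM in KO cells, against 1516 UMIs and 13542.5 CPM in control cells, a ratio of 1.41 (1.32 to 1.505). All 45 KO and all 34 control cells held it. It made up a median of 1.75% of a cell's UMIs in KO and 1.09% in control cells, over ranges of 0.406% to 6.18% in KO and 0.0917% to 6.75% in control cells, so single cells overlapped. Without the cell with most Ccl6 in each library the ratio was 1.45. None of the 3 ligands reached a 2-fold difference here, whereas 3.59% of the 1701 genes with at least 20 UMIs in this class were at least 2-fold higher in KO cells and 3.76% at least 2-fold lower. The 3 ligands shared cells: 41 of 45 KO and 32 of 34 control cells held all of them.

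Outside that class, Ccl6 was next highest in macrophage- or monocyte-like cells, with 258 UMIs in KO and 935 UMIs in control cells (812 and 1075 CPM, ratio 0.755, interval 0.655 to 0.868). The basophil-like class held 88.4% of the Ccl6 UMIs of the KO library but 53.4% of those of the control library, which also had more macrophage-like cells. Ccl3 and Ccl4 UMIs lay in the basophil-like class to 79.8% and 69.0% in the KO library and to 75.2% and 55.4% in the control library. NK-like cells had a lower level of Ccl4, at 266 CPM in KO and 222 CPM in control cells (ratio 1.19, interval 1.05 to 1.36). The leading control cell held 171 of those Ccl4 UMIs, and with the leading cell of either library left out the ratio was 1.79. In NK-like cells Ccl4 came with Ccl5: 587 of 596 Ccl4 UMIs in KO and 366 of 427 in control cells lay in cells that also held Ccl5. Plasmacytoid dendritic-like cells had Ccl4 at 269 CPM in KO and 227 CPM in control cells with 1 UMI of Ccl3 in KO and 2 in control cells, so there the pair did not go together. Ccl4 was the 1 ligand with 20 UMIs in that class and was not 2-fold apart, where 3.02% of 3538 genes were higher and 3.25% lower.

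Ccl5 (RANTES, a ligand of Ccr1 and Ccr3) was the ligand with the most UMIs, 8089 in the KO and 6808 in the control library, and it was mainly a product of NK-like cells. They held 6962 Ccl5 UMIs in the KO library (3103 CPM, 86.1% of all) and 5030 in the control library (2619 CPM, 73.9%). The ratio was 1.18 (1.14 to 1.23). A Ccl5 UMI was found in 149 of 248 KO and 88 of 154 control NK-like cells. After each cell was thinned to 1500 UMIs these shares were 49.0% (interval 42.6% to 55.4%) in KO and 48.1% (39.9% to 56.2%) in control cells, so the share of Ccl5-holding cells did not differ detectably.

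The NK-like class was made of 2 clusters, and Ccl5 belonged to 1 of them. The cluster led by Gzma, Klrb1c and Klra4, with cytotoxic granzyme A and NK receptors, held Ccl5 at 8908 CPM in KO (143 cells) and 7068 CPM in control (96 cells), a ratio of 1.26 (1.21 to 1.31). The cluster led by the granzymes Gzmd, Gzme and Gzmc held 95.4 CPM in KO (105 cells) and 90.7 CPM in control (58 cells), a ratio of 1.05 (0.815 to 1.36). In the Gzma cluster the median cell had 27 Ccl5 UMIs in KO and 17.5 in control, and the highest had 266 in KO and 308 in control. In the Gzmd cluster the median was 0 in both libraries. Among the 4 ligands with at least 20 UMIs in NK-like cells, 0 were higher by 2-fold in KO and 1, Ccl1, was lower, against 1.28% and 1.57% of the 8611 genes so measured.

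**Figure D2:**
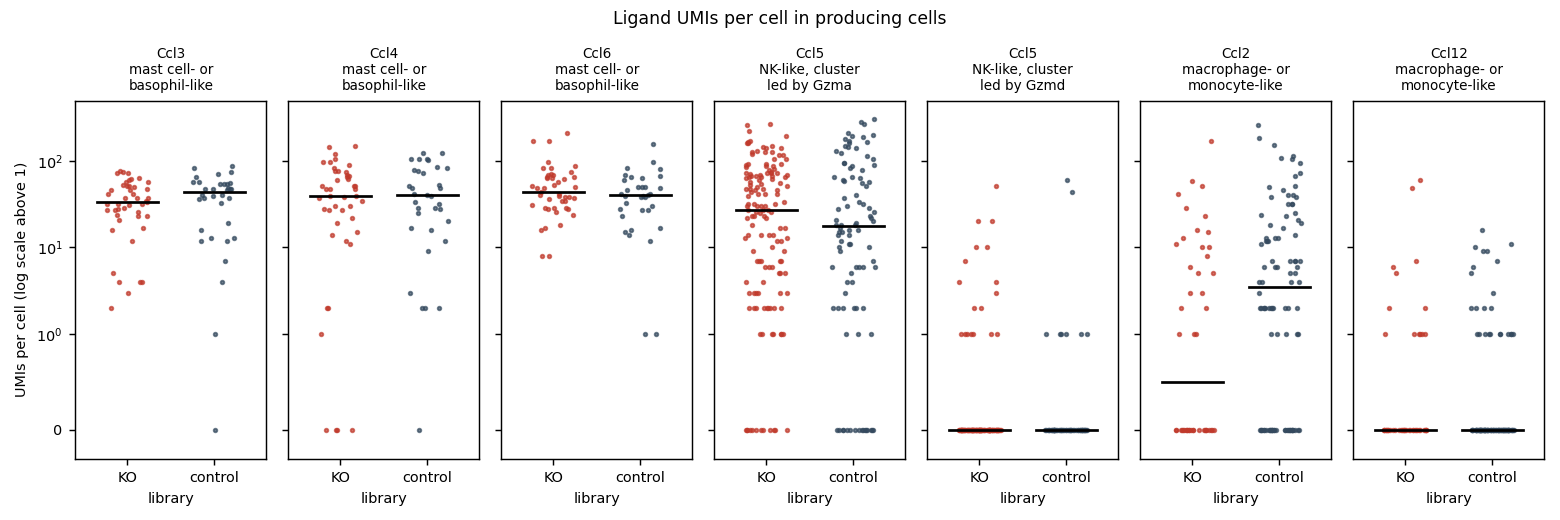
UMIs of a ligand in each cell (points, log scale above 1) of its producing cells, KO left of control, with black bars at medians. Ccl3, Ccl4 and Ccl6 fill nearly every basophil-like cell, Ccl5 separates the NK-like clusters, and Ccl2 and Ccl12 are carried by part of the macrophage-like cells, with 2 KO cells at 60 and 49 Ccl12 UMIs above all control cells.

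T-like cells came next, with Ccl5 at 1405 CPM in KO (20 of 38 cells) and 918 CPM in control (21 of 35 cells). Mostly different clusters make up this class in each library: 28 of 38 KO cells belonged to a cluster led by Trgv2, Trbv13-2 and Klra6 and 25 of 35 control cells to one led by Penk, Trbv17 and Cd8a. Within those clusters the ratios were 1.37 (1.08 to 1.75) and 0.901 (0.670 to 1.20). All 7 conventional dendritic-like cells held Ccl5, with 433 UMIs in 5 KO cells (12162 CPM) and 389 UMIs in 2 control cells (15065 CPM), a higher level than in NK-like cells. In macrophage- or monocyte-like cells Ccl5 was lower in KO, with 95 UMIs (299 CPM) against 606 UMIs in control cells (697 CPM), a ratio of 0.429 (0.342 to 0.533). The share of cells with a Ccl5 UMI was close, at 9 of 46 KO and 20 of 98 control cells. The 8 NK markers summed there to 59.8 CPM in KO (3 found) and 143 CPM in control cells (8 found). Their part in the Ccl5 value was not tested. In ILC1-like cells Ccl5 was the 1 ligand with at least 20 UMIs. It was lower in KO, with 39 UMIs in 53 cells against 46 UMIs in 3 control cells. In this class 8.35% of 1593 genes were 2-fold higher and 30.4% lower. By the control library alone, the rule placed Ccl5 in the ILC1-like class, at 6735 CPM in those 3 cells.

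Ccl2, Ccl7, Ccl12 and Ccl8 (the monocyte chemoattractant proteins MCP-1, MCP-3, MCP-5 and MCP-2) were ligands of macrophage- or monocyte-like cells, the class led by C1qb, Lyz2 and Tgfbi. That class held 94.9% of the Ccl2, 96.6% of the Ccl7 and 98.7% of the Ccl12 UMIs of both libraries pooled, and all 59 of the Ccl8 UMIs. All 10 defining markers had UMIs in each library, at a summed 22076 CPM in KO and 20660.3 CPM in control cells. The summed level of 8 B cell markers in the class was 283 CPM in KO and 48.3 CPM in control cells, with 7 of 8 found in each. Its part in the differences below was not tested. Together the 4 ligands made up 0.252% of the class UMIs in KO and 0.278% in control cells, and 29 of 46 KO and 72 of 98 control cells held at least 1 of them.

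Ccl2, the main Ccr2 ligand for monocytes, had 485 UMIs (1526 CPM) in KO cells, against 1932 UMIs (2222 CPM) in control cells, a ratio of 0.687 (0.621 to 0.759). Its highest cells held 169 UMIs in KO and 260 UMIs in control. With the leading cell per library left out the ratio was 0.529 (0.468 to 0.597), and without the top 2 it was 0.491 (0.429 to 0.561), past the 2-fold line. A Ccl2 UMI was found in 23 of 46 KO and 67 of 98 control cells, and after thinning to 1500 UMIs in 39.5% (24.98% to 55.6%) of KO and 47.9% (37.5% to 58.4%) of control cells. The thinned shares were within each other's intervals.

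Ccl7, which binds Ccr1, Ccr2 and Ccr3, had 136 UMIs (428 CPM) in KO and 371 UMIs (427 CPM) in control cells, a ratio of 1.003 (0.818 to 1.22). Leaving out the top cell of each library, with 56 UMIs in KO and 87 UMIs in control, gave 0.777 (0.599 to 0.999). It was found in 12 of 46 KO and 28 of 98 control cells. Ccl7 lay mostly in cells with Ccl2: 127 of 136 KO and 366 of 371 control UMIs of Ccl7 were in cells that also held Ccl2.

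Ccl12, a mouse ligand of Ccr2, was higher in KO, with 137 UMIs (431 CPM) in KO cells, against 95 UMIs (109 CPM) in control cells, a ratio of 3.95 (3.02 to 5.18). That gap lay in 2 cells. The top KO cells held 60 and 49 UMIs, whereas no control cell held more than 16. Without the top 2 cells of each library, 28 KO and 68 control UMIs remained, at a ratio of 1.19 (0.738 to 1.88). The share of cells with a UMI was 13 of 46 in KO and 24 of 98 in control, and 13.95% and 11.7% after thinning to 1500 UMIs.

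Ccl8 followed the same pattern at lower counts, with 42 UMIs in 2 KO cells, against 17 UMIs in 4 control cells (132 and 19.5 CPM, ratio 6.76, interval 3.77 to 12.7). A single KO cell held 41 of the 42 UMIs. With the leading cell per library left out 1 KO and 5 control UMIs remained, and the ratio turned to 0.550 (0.0116 to 4.92). Both KO cells with Ccl8 also held Ccl12, but only 1 of the 4 control cells with Ccl8 did. Of the 8 ligands with at least 20 UMIs in macrophage- or monocyte-like cells, 2 were at least 2-fold higher in KO (Ccl8 and Ccl12) and 1 was lower (Ccl5), where 2.95% of 5553 genes were higher and 5.17% lower.

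Ccl1, a ligand of Ccr8, was found in 34 cells in all, 15 KO cells with 56 UMIs and 19 control cells with 589 UMIs. The rule placed it in the cycling class, led by histone and other cell-cycle genes, at a pooled 184 CPM against 154 CPM in T-like cells. That class had 13 UMIs in 3 KO cells (18.1 CPM), against 253 UMIs in 6 control cells (348 CPM), of which 230 were in 1 cell. The placement rests on that control cell, so the class was chosen through the control value compared here. The Ccl1 ratio in this class was 0.0520 (0.0273 to 0.0905). It was 0.172 (0.0431 to 0.502) with the leading cell per library left out, when 4 KO and 23 control UMIs were left. Without the top 2 cells of each library 2 KO and 5 control UMIs remained, at 0.387 (0.0369 to 2.37). The make-up of this class also differed: the summed level of 8 NK markers, all found in both libraries, was 4179 CPM in KO and 6054 CPM in control cells. B cell markers summed to 406 CPM in KO (7 of 8 found) and 2.75 CPM in control cells (2 of 8), and macrophage markers to 761 CPM in KO (5 of 10) and 172 CPM in control cells (1 of 10). Gzmc stood at 9919 CPM in KO and 17435 CPM in control cycling cells, and Gzmd at 801 and 1997 CPM. The part of this make-up in the Ccl1 and Ccl3 values was not tested. Of 4 ligands measured in cycling cells, 0 were 2-fold higher in KO and 2 lower (Ccl1 and Ccl3), with 5.11% of 6483 genes higher and 2.55% lower. Ccl3 had 7 KO and 44 control UMIs there, of which 2 and 1 remained with the leading cell per library left out.

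Ccl1 was not limited to cycling cells. Of its 15 KO cells 6 were NK-like, 3 T-like, 3 cycling, 2 ILC1-like and 1 B-like, and of its 19 control cells 7 were NK-like, 6 T-like and 6 cycling. NK-like cells had 22 Ccl1 UMIs in KO and 256 in control cells, a ratio of 0.0736 (0.0453 to 0.114). With the leading cell per library left out, 11 KO and 175 control UMIs remained there, at a ratio of 0.0534 (0.0262 to 0.0980). In the NK-like cluster led by Gzmd, 5 of 105 KO cells held 11 Ccl1 UMIs and 7 of 58 control cells held 256. These were 7.44 and 209 CPM, a ratio of 0.0356 (interval 0.0175 to 0.0648). Control cells with 81, 73, 55 and 37 UMIs held most of the 256, so this ratio rests on few cells. Of the 6 control cells with most Ccl1, at 37 to 230 UMIs, 5 were NK-like or cycling and 1 was T-like. T-like cells had 17 UMIs in KO and 80 UMIs in control cells (63.5 and 222 CPM). All of these UMIs lay in the T-like cluster led by Penk, at 206 and 280 CPM (ratio 0.735, interval 0.408 to 1.25). In the KO library alone the T-like class stood above the cycling one. The top control cell of Ccl1 had 37066 UMIs in all, and Ccl1-holding cells had a median of 16596 UMIs in KO and 25791 UMIs in control, well above the library medians, so the counts rest on few and deeply read cells.

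Ccl22, the Ccr4 ligand of mature dendritic cells, gave 35 UMIs, all in the 7 conventional dendritic-like cells. The 5 KO cells held 0, 2, 4, 4 and 15 UMIs and the 2 control cells 5 and 5. These cells were led by Fscn1, Il12b and Zmynd15 and also held Ccr7, with 12 to 68 UMIs per KO cell and 55 and 82 UMIs in the control cells, a set of genes known from migratory dendritic cells. The ratio of 1.81 (0.841 to 4.23) spans no difference and rests on too few cells to compare genotypes. Ccl17, the other Ccr4 ligand, had 5 UMIs in both libraries together.

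**Figure D3:**
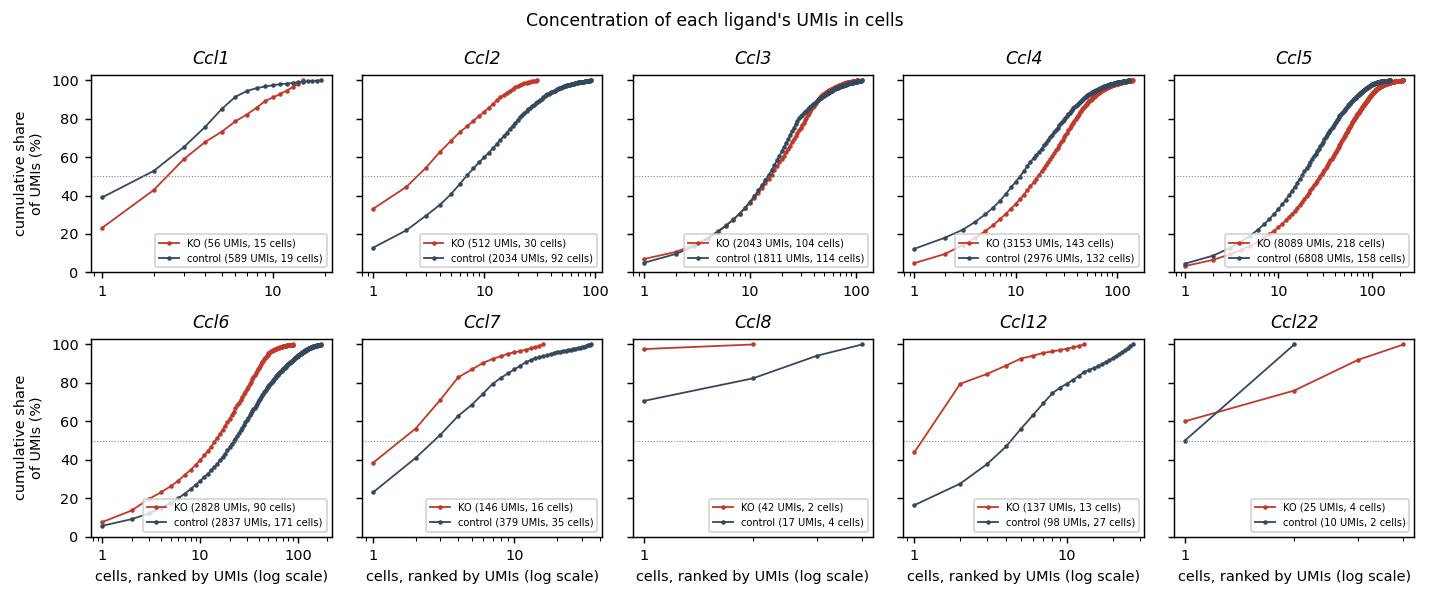
Cumulative share of each ligand's UMIs (vertical axis, percent) over cells ranked by UMIs (horizontal axis, log scale), with KO and control lines and a dotted line at 50%. Curves of Ccl8, Ccl22, Ccl7 and Ccl1 reach 50% within 3 cells, those of Ccl5 after 28 KO and 18 control cells.

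The ligands differed in how far their UMIs were gathered into few cells. The smallest number of cells that held 50% of the UMIs was lowest for Ccl8 and Ccl22, at 1 cell in each library, then Ccl7 at 2 KO and 3 control cells, Ccl1 at 3 KO and 2 control cells, Ccl12 at 2 KO and 5 control cells and Ccl2 at 3 KO and 7 control cells. Broader ligands were Ccl3, at 16 KO and 15 control cells, Ccl4 at 17 and 12, Ccl6 at 15 and 23 and Ccl5 at 28 and 18. The top 10 cells held 83.6% of the Ccl2 UMIs in the KO and 59.9% in the control library, and after thinning to 1500 UMIs 82.2% in KO and 54.8% in control, with 21 KO and 53 control cells holding it. For Ccl5 the top 10 cells held 23.5% in KO and 32.9% in control, and 24.8% and 39.1% after thinning. The basophil ligands were the ones whose producing class was nearly uniformly positive.

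Single cells also made large parts of the level in classes that hardly produce a ligand. Of 370 Ccl4 UMIs in control B-like cells 365 were in 1 cell, and with the leading cell per library left out 7 KO and 5 control UMIs were left. In the KO library 1 T-like cell of 13778 UMIs held 141 Ccl3 and 151 Ccl4 UMIs, the highest of any KO cell for either gene. Of 3 ligands with at least 20 UMIs in B-like cells 0 were higher and 3 lower in KO, against 3.23% higher and 3% lower of 7129 genes, and those counts rest on 3 control cells each. In T-like cells 4 were measured, 2 higher (Ccl3 and Ccl4) and 1 lower (Ccl1), against 4.62% and 5.64% of 4093 genes. All Ccl1 UMIs of this class lay in the cluster led by Penk (10 KO and 25 control cells). The Ccl1 ratio in that cluster was 0.735 (0.408 to 1.25), within 2-fold, while Ccl3 and Ccl4 stayed higher, at 33.7 and 7.69. With the leading cell per library left out, Ccl3 had 6 KO and 11 control UMIs in T-like cells and Ccl4 9 and 48.

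**Figure D4:**
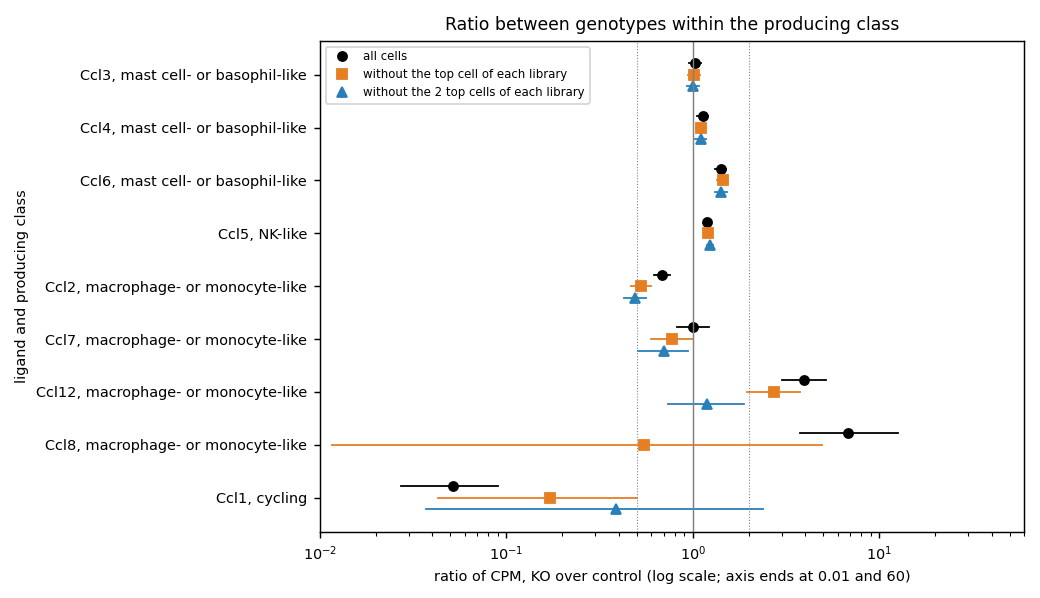
Ratio of CPM, KO over control (log axis), for 9 ligands in their producing class, with 95% counting intervals, for all cells (circles), with the leading cell per library left out (squares) and without the top 2 (triangles, not drawn for Ccl8, where 3 or fewer UMIs are left per library). Dotted lines mark 2-fold. Ccl12 stands at 3.95 with all cells and at 1.19 without the top 2, Ccl8 at 6.76 with all cells and at 0.550 without the top cell, while Ccl3, Ccl4, Ccl5 and Ccl6 stay between 1.002 and 1.45.

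Counted over the producing classes, 9 ligands had at least 20 UMIs, of which 2 were at least 2-fold higher in KO (Ccl8 and Ccl12, in a class with 2.95% of genes higher) and 1 was lower (Ccl1, in a class with 2.55% of genes lower). The median log2 ratio of the 9 was 0.17, while the medians over all genes of the 4 producing classes lay between -0.01 and 0.06. That 0.17 is the value of Ccl4 alone, in a set drawn from 4 classes, and it shows no common shift of the ligands. With the leading cell per library left out, and the classes kept as chosen with it, 1 ligand, Ccl12, was higher and 1, Ccl1, lower. The cycling class was chosen for Ccl1 through 1 control cell, so counting Ccl1 as lower there is not independent of that choice. The 4 ligands spread over many cells (Ccl3, Ccl4, Ccl5 and Ccl6) all had ratios from 1.02 to 1.41, under the 2-fold line.

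A cluster led by Mt1, Gpnmb and Inhba, which no marker list named, had 16 KO and 72 control cells and UMIs of 7 ligands. Of 5 ligands with at least 20 UMIs there, 2 were at least 2-fold higher in KO (Ccl3 at 832 against 238 CPM in control, Ccl4 at 637 against 303 CPM in control) and 2 lower (Ccl2 at 52.0 against 233 CPM in control, Ccl5 at 39.0 against 773 CPM in control). The background was 7.54% higher and 8.94% lower of 2640 genes. Summed markers of several cell types differed between the libraries too, and those listed next were all higher in KO, unlike Ccl2 and Ccl5. In KO and control cells of the cluster, 7 neutrophil markers summed to 4899 CPM (7 found) and 1569.5 CPM (5 found), 10 macrophage markers to 4042 CPM (9 found) and 2679 CPM (10 found), 8 NK markers to 624 CPM (8 found) and 7.76 CPM (1 found), 8 B cell markers to 351 CPM (5 found) and 0 CPM, and 8 basophil markers, of which 1 had UMIs, to 299 and 33.6 CPM. Lower in KO were, among others, plasma cell markers (650 CPM in KO, 776 CPM in control) and plasmacytoid dendritic cell markers (845 and 977 CPM). So were germinal centre B cell markers (52.0 and 111 CPM) and T cell markers (13.0 and 33.6 CPM). The part of any of these markers in the ligand values was not tested. With the leading cell per library left out Ccl3 stood at a ratio of 1.99 (1.27 to 3.04) and Ccl4 turned to 0.205 (0.0413 to 0.623), with 3 KO UMIs left.

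Receptors of these ligands were also in the sorted cells. Ccr1, the receptor of Ccl3, Ccl5, Ccl6 and Ccl7, was at 500.3 CPM in KO and 512 CPM in control macrophage- or monocyte-like cells, at 481 and 548 CPM in the Mt1-led cluster, and at 267 and 357 CPM in the basophil-like cells that hold most of its ligand Ccl6. Ccr2, the receptor of Ccl2, Ccl7 and Ccl12, was at 922 CPM in 53 KO ILC1-like cells (8 UMIs in 3 control cells), 519 CPM in KO and 681 CPM in control macrophage-like cells and 365 and 303 CPM in NK-like cells. Ccr8, a receptor of Ccl1, was highest in T-like cells at 135 CPM in KO and 125 CPM in control cells. Ccr4, the Ccl22 receptor, had 12 UMIs in all, led by gamma delta T-like cells.

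Of 8 receptors of the members (the list includes the scavenger receptor Ackr2 and the non-signalling receptor Ccrl2), 6 had at least 20 UMIs in the class where they were highest. Of these 1 was at least 2-fold higher in KO, Ackr2 in B-like cells (19 UMIs in KO and 7 UMIs in control cells, ratio 2.49, interval 1.004 to 7.02), and 0 were lower. In B-like cells 3.23% of genes were higher and 3% lower. Clusters within the B-like class were unevenly shared: 86 KO and 158 control cells in the one led by Fcer2a, and 182 KO and 69 control cells in the one led by AC133103.1, Ms4a1 and Fcrl5, and the part of this in the B-like values of Ackr2, Ccr7 and Cxcr5 was not tested. Ccrl2 was highest in the Mt1-led cluster, at 403 CPM in KO and 303 CPM in control cells. Of 9 other chemokine receptors so measured, 0 were 2-fold higher and 0 lower. The 6 of that list with most UMIs are given in KO and control cells in turn, each in its highest class of sufficient size. Ccr7, the receptor for homing to lymph nodes, led in B-like cells (314 CPM in KO, 444 CPM in control, ratio 0.707). The conventional dendritic-like class was too small to count here, though its cells held more Ccr7. It had 12 to 68 UMIs per KO cell and 55 and 82 UMIs in the control cells. Cxcr6 led in gamma delta T-like cells (1775 and 1693 CPM), a class with 2.93% of genes 2-fold higher and 4.61% lower. Ccr9 (1020 and 1220.02 CPM) and Cxcr3 (109 and 142 CPM) led in plasmacytoid dendritic-like cells. Cxcr5, the follicle receptor, led in B-like cells (140.1 and 115 CPM) and Cxcr4 in the Mt1-led cluster (156 and 142 CPM).

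Of 22 other chemokines, 20 were found by a unique symbol, 11 had at least 10 UMIs, and 10 had at least 20 in their leading class. Among the 10, 1 was higher by 2-fold in KO, Cxcl2, a neutrophil attractant, in the Mt1-led cluster (2794 CPM in KO and 1303 CPM in control cells), where 7.54% of genes were higher and the neutrophil markers were higher too, as given above. The part of those markers in the Cxcl2 value was not tested. Of the 491 Cxcl2 UMIs of the KO library 192 were in 1 cell, and of the 1224 of the control library 326. Lower were 3. Xcl1, a chemokine of NK and T cells, stood at 1047 CPM in KO and 3606 CPM in control cycling cells (ratio 0.290), where 2.55% of genes were lower. The NK markers were lower there too, as given above, and their part in the Xcl1 value was not tested. Cxcl9, a ligand of Cxcr3, stood at 50.3 CPM in KO and 168 CPM in control macrophage-like cells (ratio 0.300). In that class 5.17% of 5553 genes were lower. Of the 146 Cxcl9 UMIs of the control library 49 were in 1 cell, and 2 cells held 50%. Ppbp had 0 UMIs in KO and 122 UMIs in control macrophage-like cells, 121 of them in 1 cell. The other Cxcr3 ligand found, Cxcl10, was at 2077 CPM in KO and 1872 CPM in control macrophage-like cells (ratio 1.11, interval 1.01 to 1.22). Ccl9, a close relative of Ccl6 and also a Ccr1 ligand, led in the basophil-like class at 2116 CPM in KO and 1670.48 CPM in control cells (ratio 1.27, interval 1.05 to 1.53). Cxcl16 and Pf4 were highest in macrophage-like cells, at 305 and 279 CPM and at 264 and 300.1 CPM in KO and control cells. For Pf4, 44 of 97 UMIs of the KO library and 187 of 263 of the control library were in 1 cell each, and none of the 5 platelet markers had a UMI there.

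Across 20 points, each a class in a library, the gene nearest in level to each ligand was found among 8339 genes as the highest Pearson correlation of log2(CPM + 1), a description in which points share libraries and depth. Ccl6 was nearest to Ccl9 (0.974), Igsf6 and C5ar1, Ccl7 to Ccl2 (0.946), Chil3 and Rin2, and Ccl3 to Ifitm1 (0.919), Ccl4 (0.890) and Mfsd6. Ccl4 was nearest to Ccl3, Spsb2 and Ssh3, Ccl2 to Fn1 (0.967), Il18 and Ifitm6, and Ccl12 to Timp1 (0.939), Chil3 and Ifitm6. Ccl5 was nearest to Ctla2b (0.837), Tmem37 and Cemip2, and Ccl1, with UMIs in few cells, to 4930486L24Rik (0.953), Cd160 and Gipc2.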

How the data were processed

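The expression matrices deposited by the authors give raw UMI counts for each gene and barcode. The submitters' processing notes name Cell Ranger 6.0.0 and the build GRCm38 (mm10). The labels' protocols give a target of 1400 cells and 24000 reads per cell for the 5′ expression libraries. The B cell receptor tables were used to remove barcodes with 2 heavy chains (6 KO, 0 control). Also removed were barcodes below 200 genes or above 10% mitochondrial UMIs (23 KO, 11 control), as were Scrublet doublets (5 KO, 1 control). The rest were clustered with Scanpy 1.11.5 and Leiden at resolution 1, on 2000 variable genes, 30 components and 15 neighbours, with chemokine and immunoglobulin genes left out. Clusters were named from 17 marker lists, where the list with the highest mean log2 level reached 1, 3 or more markers were found in 10% of the cells, and none had more markers among the 25 leading genes. The library totals were 5463434 UMIs (KO) and 6976374 UMIs (control).

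UMIs were summed per class and library and given as CPM of the class, with exact Poisson, Clopper-Pearson (shares) and conditional binomial (ratios) intervals. A sum of 0 was set to 3 UMIs in a ratio. A gene was compared with at least 20 UMIs over both libraries in a class, and counted as higher or lower past 2-fold. Classes needed 20 cells in each library or 50 in all, and a producing class at least 10 UMIs of the ligand. The ratio calculation was tested on simulated data. Those were Poisson counts drawn from whole-library sums, so the test does not cover ligands whose UMIs are gathered in single cells. The members, lists and naming rule were chosen with earlier results of these data known. All members are named, with up to 6 other chemokines and 6 other receptors with most UMIs, member receptors with at least 10 UMIs, the 3 nearest genes of each member with at least 100 UMIs, and the 3 leading genes of a cluster. Cxcl9 and Ppbp fall outside this rule and were named after their values were seen, because they are among 3 lower genes, and so was Ccl17. Gzmc and Gzmd in cycling cells and Ccr7 in the Ccl22 cells were also chosen after seeing values. Scaling by TMM factors (edgeR 4.0.16) was an alternative. Of the listed receptors, 1 is counted but its values are not reported here.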

Additional observations from a re-analysis of the deposited data

Results flagged for a closer look

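The ratio of KO over control went opposite ways in different cell classes for 4 ligands, with 1 library per genotype, and none of these differences between classes was tested. Ccl3 stood at 11.7 in T-like cells (7.04 to 20.6) and at 0.0707 in B-like cells (upper limit 0.0912), where KO cells had 0 UMIs, set to 3, and control cells 39. Ccl4 stood at 2.996 in T-like cells (2.25 to 4.01) and at 0.0571 in B-like cells (0.0358 to 0.0871). With the leading cell per library left out, Ccl3 was at 0.723 and Ccl4 at 0.249 in T-like cells, and Ccl4 at 1.30 in B-like cells, where 7 control UMIs of Ccl3 remained against 0 in KO, at 0.392 with the 0 set to 3. Ccl5 stood at 1.53 in T-like cells (1.32 to 1.78), and at 0.0411 (0.0261 to 0.0643) in ILC1-like cells, of which the control library held 3, with 46 UMIs. Within the T-like clusters its ratios were 1.37 and 0.901, as given above. With the leading cell per library left out, Ccl5 was at 1.41 in T-like and at 0.0919 in ILC1-like cells, with 10 control UMIs left in the latter. Ccl6 stood at 1.41 in mast cell- or basophil-like cells (1.32 to 1.505) and at 0.542 (0.347 to 0.814) in the cluster led by Mt1, Gpnmb and Inhba, with 26 KO and 241 control UMIs. With the leading cell per library left out, Ccl6 was at 1.45 and 0.214, with 8 KO UMIs left in that cluster.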

How the results depend on the processing

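No paired analysis was possible because each genotype had 1 library. Of the ratios recomputed in the producing classes (other clustering resolutions, no barcode filter, TMM or median scaling, shared barcodes or leading cells left out), 66 stayed within the counting interval, 13 moved and 1 turned. The one that turned was Ccl8 with the leading cell per library left out, at 0.550. Without that cell the number of ligands at least 2-fold higher in KO was 1. Leaving out the top 2 cells, an alternative added after seeing the data, gave 1.19 for Ccl12, 0.491 for Ccl2 and 0.387 (0.0369 to 2.37) for Ccl1. Ccl7, at 1.003 with all cells, lay between 0.701 and 1.08. The Ccl5 ratio lay between 1.07 (no barcode filter) and 1.30 (resolution 2). Thinning moved 26 of 40 shares of UMIs in the top 10 cells. Values of Ccl8, Ccl12, Ccl22 and of Ccl1 in cycling cells rest on few cells, which limits what this depth can show.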
